A study of Homo sapiens with 2 samples.

Results

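The 8 genes described here move iron into, out of and around the cell, or hold it in store: the ferritin subunits FTH1 and FTL, the importers and reductase TFRC, SLC11A2 and STEAP3, the exporter SLC40A1, and the iron sensors ACO1 and IREB2. They were taken by name from a table of 51795 gene symbols, and each had a single entry in it. The cells were 22Rv1, an established human line of castration-resistant prostate cancer, profiled by RNA-seq of total RNA. They expressed the vector control (shCON, here the control) or a hairpin RNA that targets EIF3F (shEIF3F), whose product is the f subunit of the translation initiation factor eIF3. Each group was 1 library. Without replicates the differences below cannot be set against a replicate spread, and they carry no p-value, error or interval. Loss of EIF3F and any other effect of the 1 hairpin used cannot be told apart. Values are TPM, a transcript abundance that the authors normalised to transcript length and to each library's total, so levels of different genes in a library can be compared. TPM keeps no read number, and the depth behind each value is therefore unknown.

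Ferritin is a hollow shell of heavy (FTH1) and light (FTL) chains that stores iron in the cytosol. Iron bound to transferrin enters through the transferrin receptor TFRC, is reduced in the endosome by STEAP3 and leaves it through the divalent metal transporter SLC11A2, while ferroportin, the product of SLC40A1, is the known exporter of ferrous iron. ACO1 and IREB2 encode iron regulatory proteins, which in iron-poor cells bind stem-loops called iron-responsive elements: bound near the start of a ferritin or ferroportin mRNA they block translation, and bound in the 3′ UTR of TFRC mRNA they protect it from decay. Much of this control thus acts on translation or mRNA decay, and the TPM values report only the amount of mRNA.

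The stem-loops are shown first because the iron regulatory proteins are known to act through them on ferritin, ferroportin and TFRC mRNA. The UTRs annotated in GENCODE release 29 (GRCh38) were searched on the transcript strand for CNNNNNCAGTGN followed by 5 bases that pair with the 5 before the loop, with GT pairs allowed. The pattern was found in 4 of the 8 genes, against 0.79% of the 19627 protein-coding genes searched (155 genes). Each site is printed 5′ to 3′ over 27 bases with the loop in capitals.
FTH1, 5′ UTR, chr11:61967575-61967601, minus strand: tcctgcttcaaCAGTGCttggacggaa
FTL, 5′ UTR, chr19:48965336-48965362, plus strand: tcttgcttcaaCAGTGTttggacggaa
SLC40A1, 5′ UTR, chr2:189580662-189580688, minus strand: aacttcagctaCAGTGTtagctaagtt
TFRC, 3′ UTR, chr3:196050980-196051006, minus strand: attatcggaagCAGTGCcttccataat
TFRC, 3′ UTR, chr3:196050576-196050602, minus strand: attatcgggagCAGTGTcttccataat
TFRC, 3′ UTR, chr3:196050511-196050537, minus strand: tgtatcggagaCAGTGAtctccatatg
TFRC, 3′ UTR, chr3:196050464-196050490, minus strand: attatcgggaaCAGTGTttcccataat
The FTH1 and FTL sites were identical at 25 of 27 bases and differed by C3T and C17T, given as the FTH1 base, the position from 1 at the 5′ end, then the FTL base. TFRC was the 1 gene of all those searched with 4 or more matches. Below the unpaired C, all 5 flanking positions could pair in the TFRC and SLC40A1 sites and 4 of 5 in the FTH1 and FTL sites. SLC11A2, ACO1, IREB2 and STEAP3 had no match to these letters in the transcripts searched.

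As a check of the labels, EIF3F stood at 991 TPM in the control and 17.0 TPM with the hairpin. All 9 prostate epithelial markers had a mean of 1 TPM or more, and their summed level was 912 and 993 TPM. Ratios below are log2((shEIF3F TPM + 1) / (shCON TPM + 1)) for the 13309 genes whose mean over both libraries reached 1 TPM, and a gene at 1 or more, or at -1 or less, is called at least 2-fold higher or lower by a fixed rule of size. The median ratio of all genes was -0.36, so centring the ratios on it adds 0.36 to each. Rescaling the libraries without their 100 most abundant genes adds 0.38 in the median. Which scaling is right cannot be read from these files, and a gene's direction is given below with the scalings under which it flips.

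FTH1, the heavy chain, which carries the ferroxidase site that oxidises incoming iron, was the most abundant of the 8, at 2881 TPM in the control and 3406 TPM in shEIF3F cells. It ranked 64 and 70 among all symbols in the 2 libraries. FTL, the light chain, which helps the mineral core to form, was at 1138 TPM in the control and 685 TPM in shEIF3F cells, with ranks of 135 and 167. The shEIF3F library was thus the higher of the pair for FTH1 and the lower for FTL. FTH1 had a log2 ratio of 0.24 and FTL one of -0.73. A change of pseudocount or minimum, or the most abundant entry, cannot change the sign of either. Centring and rescaling raise both ratios, so they could change the sign of FTL only, which was at -0.37 and -0.30. Within GC bins FTH1 was at 0.44 and FTL at -0.25, and within length bins at 0.56 and -0.33. Neither reached 2-fold. In RNA from a whole culture, fewer cells that express a gene and less of its RNA per cell cannot be told apart.

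**Figure D1:**
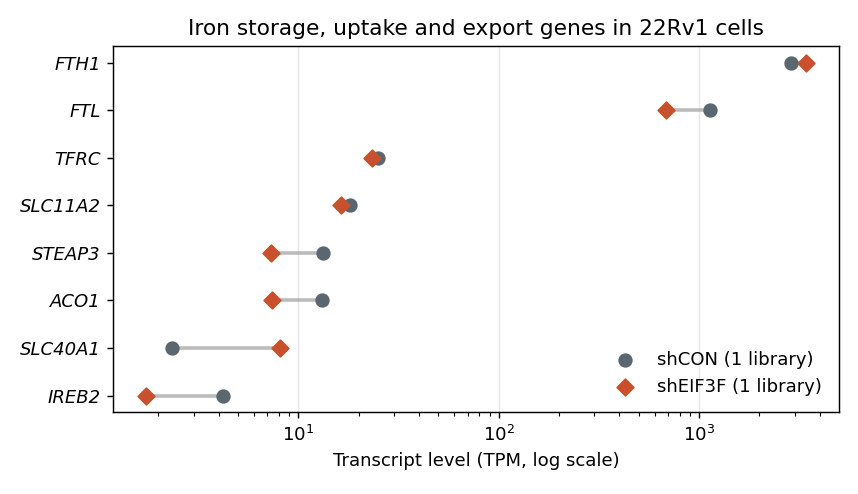
Transcript level of each gene in TPM (horizontal log axis) in the shCON library (circles) and the shEIF3F library (diamonds), with a grey line between the 2 values of a gene and genes ordered by mean level. FTH1 and FTL lie far to the right of the rest, and SLC40A1 has the widest gap with shEIF3F on the higher side.

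The 2 ferritin chains together held much the same share of each library. Their summed level was 4019 TPM in the control and 4090 TPM in shEIF3F cells, which is 0.405% and 0.411% of all TPM. What differed was the mix: FTL made up 28.3% of ferritin transcripts in shCON and 16.7% in shEIF3F. Put as a quotient within a library, which does not depend on how the libraries are scaled against each other, FTL stood at 39.5% of FTH1 in shCON and at 20.1% in shEIF3F. This is a 1.96-fold lower quotient (log2 change -0.97). The log2 ratios of FTH1 and FTL both lay between the quartiles of all genes tested, -1.02 and 0.27. How often 2 genes taken at random differ by this much was not tested, so the change is not read as unusual. Across 13031 genes, which are not independent replicates, log2 ratios had a Spearman correlation of -0.318 with transcript GC content. The annotated FTL transcript has 56.3% GC against 50.1% for FTH1. With the median ratio of genes of like GC content removed, the change of the quotient was -0.69, and with that of genes of like transcript length removed it was -0.89.

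Both ferritin genes have many processed pseudogenes, which can take reads from them or lend reads to them. The table listed 25 entries named as FTH1 pseudogenes, of which 14 were at 0 in both libraries, and 16 named as FTL pseudogenes, again with 14 at 0. Their summed levels were 1.53 TPM in the control and 3.5 TPM in shEIF3F cells for FTH1, and 1.87 and 0.5 TPM for FTL. Adding them to the parent genes left the change of the quotient at -0.98. How the authors' counting treated reads that match several places is not stated in the labels. FTH1 exons also overlap BEST1 on the other strand, which was listed at 0.81 and 0.07 TPM.

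**Figure D2:**
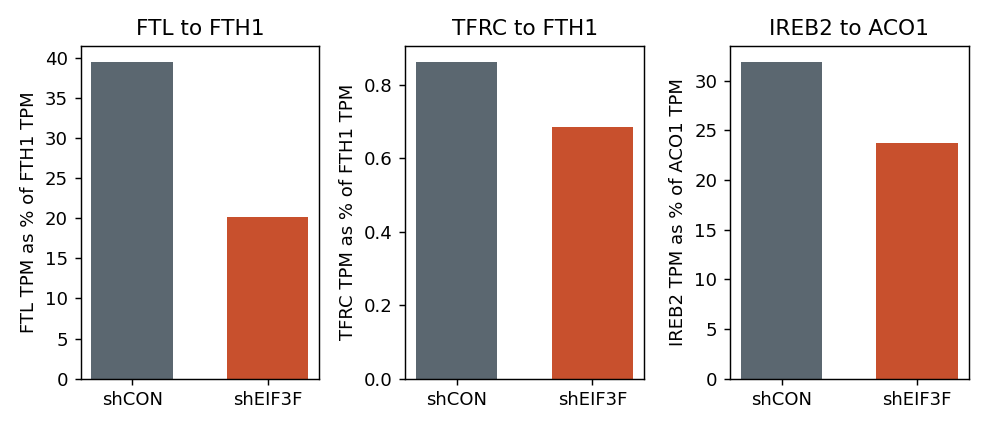
TPM of one gene as a percentage of the TPM of another in the same library, for the shCON and shEIF3F libraries; bars start at 0 and each is 1 library. The FTL bar is at 20.1% of FTH1 in shEIF3F and 39.5% in shCON, and the TFRC to FTH1 and IREB2 to ACO1 quotients were lower by smaller factors.

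Among the uptake genes, the receptor and the endosomal transporter had nearly the same TPM in both libraries. TFRC was at 24.9 TPM in the control and 23.3 TPM in shEIF3F cells (log2 ratio -0.09). SLC11A2 was at 18.05 and 16.3 TPM (-0.14). Both were slightly lower in shEIF3F as deposited and slightly higher after centring, at 0.27 for TFRC and 0.22 for SLC11A2. As transcripts per ferritin heavy chain transcript, TFRC stood at 0.863% of FTH1 in shCON and 0.684% in shEIF3F, a 1.26-fold lower quotient. SLC11A2 gives rise to mRNAs with and without an iron-responsive element, and gene-level values do not separate them. STEAP3, the endosomal ferrireductase, was the lowest of the 3 in both libraries and differed more between them, at 13.2 TPM in the control and 7.3 TPM in shEIF3F cells (-0.77, and -0.42 after centring).

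SLC40A1, the exporter, was the only one of the 8 genes past 2-fold on the log2 scale used. It stood at 2.34 TPM in the control and 8.1 TPM in shEIF3F cells, 3.46-fold higher as a plain quotient of TPM and 1.45 as a log2 ratio. Its ratio was above that of 95.7% of the genes tested. The ratio was 1.8 relative to the median of all genes, and stood at 1.45 within bins of like GC content. The call rests on a low level: with a pseudocount of 5 TPM in place of 1 the ratio was 0.84, under 2-fold. Macrophages are known for strong SLC40A1 expression. Of 6 macrophage markers 1 was measured at a mean of 1 TPM or more, CD68 at 1.2 and 5.34 TPM, while CD163 was listed at 0 in both libraries. CSF1R, at 0.04 and 0.03 TPM, PTPRC, at 0.11 and 0.03 TPM, and TYROBP, at 0.32 and 0.1 TPM, were low in both libraries. MARCO was also low, at 0 TPM in the control and 0.02 TPM in shEIF3F cells. With CD68 the list summed to 1.67 TPM in the control and 5.52 TPM in shEIF3F cells. The part of the CD68 difference in the SLC40A1 result was not tested.

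Both iron sensors were lower in shEIF3F. ACO1, which encodes a protein that is a cytosolic aconitase when it holds an iron-sulphur cluster and an iron regulatory protein when it does not, was at 13.1 TPM in the control and 7.34 TPM in shEIF3F cells (log2 ratio -0.76). IREB2, whose protein is degraded in iron-rich cells, was the least abundant of the 8 genes by mean level, at 4.18 and 1.74 TPM (-0.92). Its shEIF3F level was 41.6% of that in shCON, which is past 2-fold as a plain quotient, and with a pseudocount of 0.1 TPM its log2 ratio was -1.22. After centring the ratios were -0.40 for ACO1 and -0.56 for IREB2. Neither changed sign after centring, rescaling or centring within GC or length bins. The other alternatives that gave a value cannot change the sign of a gene with a single entry and no named pseudogenes. ACO1 was the more abundant sensor mRNA in both libraries, with IREB2 at 31.9% of ACO1 in shCON and 23.7% in shEIF3F.

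Ordered by level, shCON ran FTH1, FTL, TFRC, SLC11A2, STEAP3, ACO1, IREB2 and SLC40A1. STEAP3 and ACO1 were next to each other at 13.2 and 13.1 TPM, and with no replicates their order has no meaning. In shEIF3F the first 4 kept their places, followed by SLC40A1 at 8.1 TPM, ACO1 at 7.34 TPM, STEAP3 at 7.3 TPM and IREB2 at 1.74 TPM. The exporter thus stood last in the control. In shEIF3F cells it stood just above ACO1 and STEAP3, and with no replicates that close order has no meaning either.

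All 8 genes passed the minimum of 1 TPM. As deposited, 1 of 8 was called higher by 2-fold or more, beside 8.45% of all genes tested, and 0 of 8 lower, beside 25.5%. The ratios ran from -0.92 (IREB2) to 1.45 (SLC40A1) with a median of -0.43, close to the -0.36 of all genes. After centring, 4 of the 8 lay above 0 and 4 below, and the counts past 2-fold stayed at 1 higher, beside 14.7% of all genes, and 0 lower, beside 16%. With a pseudocount of 5, 0 of 8 were higher (3.57% of all genes) and 0 lower (14.3%). With one of 0.1, SLC40A1 was the 1 gene called higher (11.1% of all genes) and IREB2 the 1 called lower (30.4%). With the GC trend removed, 1 was higher (13.3%) and 0 lower (14%). A single gene is 12.5% of the 8, so nothing about the group is read from these counts. The histogram of all genes shows them spread over its central part, with SLC40A1 apart on the higher side.

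**Figure D3:**
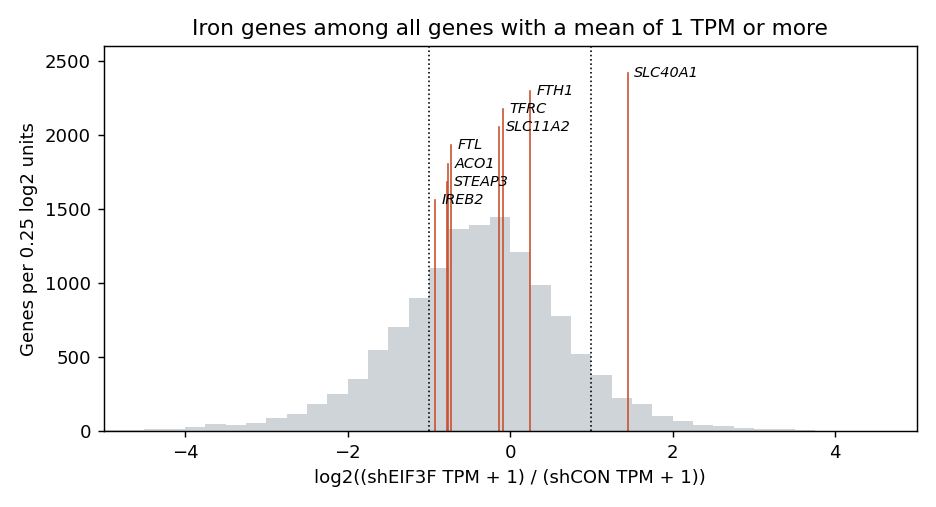
Number of genes (vertical axis) by log2 ratio of shEIF3F to shCON in steps of 0.25 (horizontal axis) for the 13309 genes tested, with a line at the ratio of each iron gene; line heights only separate the names. Dotted lines mark 2-fold, and only the SLC40A1 line lies beyond them.

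**Figure D4:**
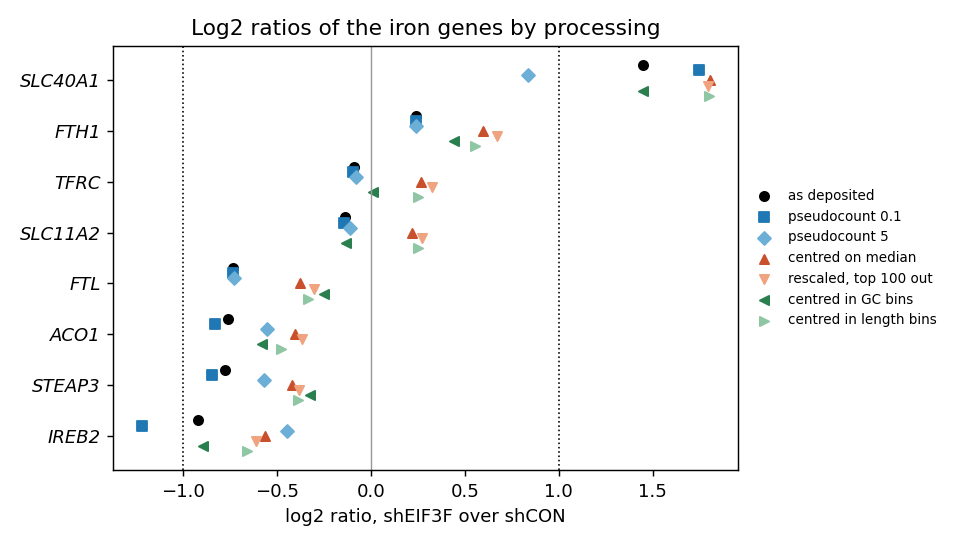
Log2 ratio of shEIF3F to shCON for each iron gene (horizontal axis) as deposited and under 6 of the alternatives (symbols). SLC40A1 and FTH1 lie above 0 and FTL, ACO1, STEAP3 and IREB2 below 0 under each one drawn, while TFRC and SLC11A2 lie on either side; dotted lines mark 2-fold.

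Other genes of iron metabolism were grouped by role into 7 lists of 83 genes, of which 68 reached a mean of 1 TPM. Of those, 5 were called higher (7.35%) and 16 lower (23.5%), beside 8.45% and 25.5% of all genes. Their median of -0.46 was near that of all genes. After centring 10 were higher (14.7%, beside 14.7% of all genes) and 11 lower (16.2%, beside 16%). These shares lie near those of all genes, and the values below describe single genes.

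Genes that deliver iron to ferritin or release it went different ways. PCBP2, one of the poly(C)-binding proteins that hand iron to ferritin, was at 545 TPM in the control and 69.1 TPM in shEIF3F cells (log2 ratio -2.96). Its close relative PCBP1, which has the same role, was at 278 and 193 TPM (-0.53). NCOA4, the receptor that takes ferritin to the lysosome for breakdown, was higher, at 28.7 and 51.1 TPM (0.81). It was past 2-fold after centring (1.17) but not within GC bins (0.82) or with a pseudocount of 5 (0.74). PCBP1 shares exon sequence with PCBP1-AS1 on the other strand, at 40.5 and 15.0 TPM, and PCBP2 with AC023509.1 on its own strand, at 7.99 and 0 TPM. FTMT, mitochondrial ferritin, was listed at 0 in both libraries.

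For uptake by other routes, 6 of 13 genes were measured and 2 were called lower (33.3%, beside 25.5% of all genes). With the GC trend removed 1 was lower (16.7%, beside 14.0%). SLC39A14, an importer of iron not bound to transferrin, was at 29.9 TPM in the control and 7.97 TPM in shEIF3F cells (log2 ratio -1.78). TFR2, the second transferrin receptor, was at 12.8 and 3.32 TPM (-1.67, and -0.91 with the GC trend removed). STEAP2, a relative of STEAP3 well known from prostate, was at 6.81 and 13.1 TPM (0.86, 1.21 after centring and 0.78 within GC bins). The importer SLC39A8 had a ratio of -0.42. TFRC was the more abundant transferrin receptor mRNA in both libraries, by the levels given above.

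On the export side, 3 of 8 genes were measured. CP, which encodes the ferroxidase ceruloplasmin that works with ferroportin, was at 0.24 TPM in the control and 4.07 TPM in shEIF3F cells (log2 ratio 2.03), while its membrane-bound relative HEPH was at 0.03 TPM or less. With a pseudocount of 5 the CP ratio was 0.79, under 2-fold, and CP did not reach a mean of 5 TPM. CP is a liver-secreted protein, and hepatocyte markers differed too: the list of 4 summed to 198 and 1047 TPM. ALB, albumin, was at 194 and 1011 TPM and TTR, transthyretin, at 0.14 and 32.2 TPM, while APOA1 was at 4.01 and 3.37 TPM and HAMP, which encodes the hormone hepcidin, was listed at 0 in both libraries. The part of these differences in the CP result was not tested. The CP value also shares exon sequence with HPS3 on the other strand, which was lower in shEIF3F cells, at 5.48 and 2.67 TPM. ERFE, erythroferrone, a secreted suppressor of hepcidin, was at 7.39 and 0.29 TPM (-2.70). FURIN, a protease that can process hemojuvelin, was at 17.5 and 29.3 TPM (0.72), and past 2-fold after centring (1.07) and within GC bins (1.48).

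Genes for the turnover of IREB2 protein, and other transcripts known to carry iron-responsive elements, lay within 2-fold in all 8 measured cases (median -0.16). Most genes did so: 8786 of the 13309 tested lay within 2-fold. FBXL5, the iron-sensing subunit of the ubiquitin ligase for IREB2, was at 11.1 TPM in the control and 6.35 TPM in shEIF3F cells (log2 ratio -0.72), and the ligase subunit RBX1 had a ratio of -0.61. EPAS1, the hypoxia factor HIF-2 alpha, had a ratio of 0.46.

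Of 18 measured haem genes, 1 was called higher (5.56%, beside 8.45% of all genes) and 3 lower (16.7%, beside 25.5%). After centring 1 was lower (5.56%, beside 16%). HMOX1, which breaks haem down and frees its iron, was at 9.67 TPM in the control and 31.8 TPM in shEIF3F cells (log2 ratio 1.62). On the synthesis side, UROD was at 84.4 and 30.7 TPM (-1.43), and the mitochondrial transporter ABCB10 was at 6.46 and 2.01 TPM (-1.31). ABCB10 was within 2-fold after centring and with a pseudocount of 5 (-0.71), as was UROD once the GC trend was removed.

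**Figure D5:**
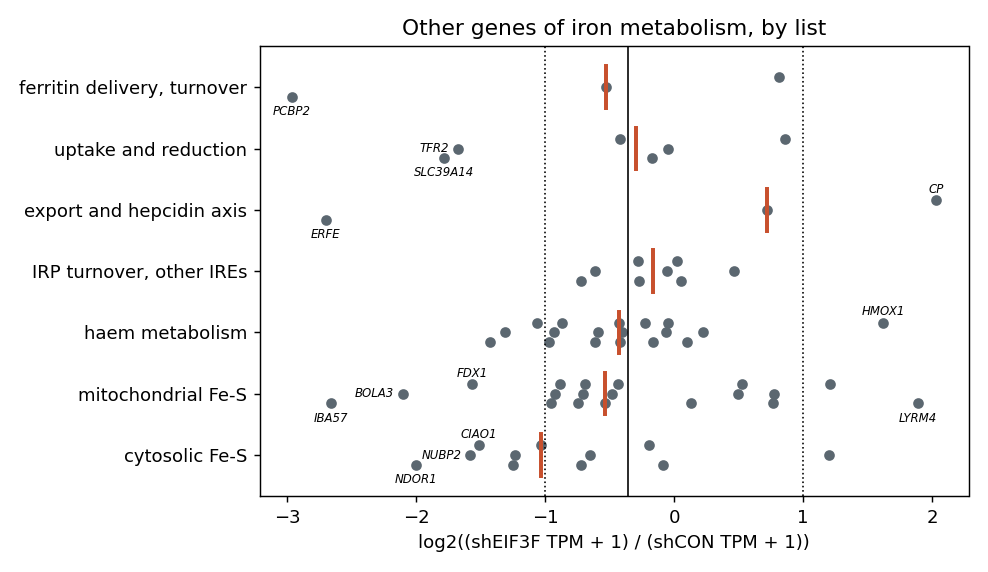
Log2 ratio of shEIF3F to shCON (horizontal axis) for each gene of the 7 other iron lists with a mean of 1 TPM or more (points), with the list median (thick bar), the median of all genes (solid line) and 2-fold (dotted lines); genes at 1.5 or beyond are named. The cytosolic iron-sulphur list has the lowest median of the 7, at -1.03.

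Iron-sulphur cluster genes were counted apart for the mitochondrial and the cytosolic pathway. In mitochondria, 2 of 19 measured genes were called higher (10.5%, beside 8.45% of all genes) and 3 lower (15.8%, beside 25.5%). After centring 4 were higher (21.1%, beside 14.7%) and 3 lower (15.8%, beside 16%). The added higher ones were ISCA2 and NFU1, chosen after their values were seen. The scaffold ISCU, chosen after its values were seen, was at 94.2 TPM in the control and 219 TPM in shEIF3F cells (log2 ratio 1.21), and LYRM4, which stabilises the desulphurase, at 11.2 and 44.4 TPM (1.89). Lower genes were the late-acting factors IBA57, at 10.7 and 0.85 TPM (-2.66), and BOLA3, at 307 and 70.6 TPM (-2.10), and the ferredoxin FDX1, at 7.51 and 1.88 TPM (-1.56, and -0.86 with a pseudocount of 5). In the cytosol, 6 of 11 were called lower (54.5%, beside 25.5% of all genes), with NDOR1 at 8.43 and 1.35 TPM (-2.0), NUBP2 at 148 and 48.9 TPM (-1.58), CIAO1 at 65.3 and 22.3 TPM (-1.51) and CIAO2B at 298 and 124 TPM (-1.25) the lowest. The cytosolic count of 6 came down to 3 once ratios were centred (27.3%, beside 16% of all genes) and to 2 without the GC trend (18.2%, beside 14%). CIAO2B was within 2-fold after centring (-0.90), and NUBP2 without the GC trend (-0.43). BOLA2, chosen after its values were seen and uncertain because a near-identical copy exists, was the 1 higher cytosolic gene, at 2.08 and 6.08 TPM (1.20). With a pseudocount of 5 its ratio was 0.65, under 2-fold, and it did not reach a mean of 5 TPM. The difference between the 2 pathways was not tested.

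With 2 libraries a pattern is no more than a pair of levels, and likeness was taken as the distance between log2(TPM + 1) values over both. The protein-coding genes nearest to FTH1 were FAU (distance 0.041), RPS25 (0.20) and RPS12 (0.33). Nearest to FTL were PPIB (0.16), CALR (0.20) and HNRNPA1 (0.30). Nearest to TFRC were PRAME (0.020), TBC1D1 (0.024) and ZDHHC9 (0.027).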

How the data were processed

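The deposited values are TPM per gene symbol, computed by the authors for each of 2 libraries and rounded to 2 decimals. Per the labels' protocols, Trizol was used for the RNA and an Illumina TruSeq kit for the libraries. The submitters' processing notes name CASAVA, HISAT2 and hg19, without versions. Not given in the sources used here are the gene counter, its annotation and strand setting, and how multiply mapped reads were handled.

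Of 58884 entries, 27 with symbols turned into dates and 5531 symbols of small RNA genes were left out, and 1533 entries with a repeated symbol were added to their namesakes. Gene types, GC content and length of the longest transcript, exon overlaps and UTRs came from GENCODE release 29 (GRCh38); GC content was known for 97.9% of genes tested. Named genes were the 8 iron genes, EIF3F, up to 4 genes of each other list with the largest absolute log2 ratio, and the 3 nearest protein-coding genes of the 3 most abundant iron genes; others, FTMT, HEPH and genes that share exons among them, were chosen after their values were seen. Cell type markers came from fixed lists. Some genes the rule takes are not reported here. The genes, lists and rules were chosen with earlier results of these data known. Alternatives were pseudocounts of 0.1 and 5, no minimum or a mean of 5 TPM, centring, rescaling, the most abundant entry per symbol, centring within 20 bins of GC content or length, and addition of pseudogenes. For the quotients, the GC and length bins were added after the data were seen. Calculations used Python 3.11.15, NumPy 2.4.6, pandas 2.3.3 and matplotlib 3.10.9, and were tested on simulated data.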

Additional observations from a re-analysis of the deposited data

How the results depend on the processing

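Of the 8 iron genes, 6 kept the direction of their log2 ratio under every alternative that gave a value. Pseudocounts, the minimum and the most abundant entry cannot change a sign here. Nor can centring and rescaling for FTH1 and SLC40A1, whose ratios they raise. The ratio of TFRC was above 0 after centring (0.27), rescaling (0.33) and centring within GC bins (0.012) or length bins (0.25), and that of SLC11A2 after centring (0.22), rescaling (0.27) and centring within length bins (0.25). With a pseudocount of 5 SLC40A1 was at 0.84, leaving 0 of 8 genes at least 2-fold higher, beside 3.57% of all genes. With one of 0.1 IREB2 was at -1.22, making 1 of 8 at least 2-fold lower, beside 30.4%. IREB2 gave no value at a mean of 5 TPM or more. Among the other iron genes, 3 of 68 were at least 2-fold higher with a pseudocount of 5 (4.41%, beside 3.57% of all genes). At a mean of 5 TPM or more, 3 of 56 were (5.36%, beside 7.5%). The count was 10 of 68 (14.7%) after centring, rescaling or centring within length bins, beside 14.7%, 14.8% and 14.5% of all genes. Within GC bins 9 of 68 were lower (13.2%, beside 14%). These shares moved with those of all genes. The FTL to FTH1, TFRC to FTH1 and IREB2 to ACO1 quotients kept their direction and their side of 2-fold under the 4 alternatives run on them. The most abundant entry could not change them, because each gene had a single entry. Added pseudogenes could not change IREB2 to ACO1, as only FTH1 and FTL had entries named so. The GC and length bins, which could change all of them, were added after the data were seen. No paired analysis was possible because each group had 1 library, and for the same reason no library could be left out. TPM keeps no read number, so depth limits on genes near 1 TPM are unknown.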

Other observations

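Iron is also held in haem proteins, and globin genes, a list added after values were seen, were listed at appreciable levels in this epithelial line. Of 13 globin and related genes 7 had a mean of 1 TPM or more. HBQ1 was at 84.2 TPM in the control and 21.2 TPM in shEIF3F cells (log2 ratio -1.94), HBA1 at 71.2 and 29.3 TPM (-1.25) and HBE1 at 36.3 and 17.2 TPM (-1.03). HBA2, at 75.1 and 55.4 TPM, HBB, at 58.5 and 41.1 TPM, and myoglobin MB, at 59.8 and 49.8 TPM, were within 2-fold. HBA1 and HBA2 are nearly identical in their coding sequence, and the division of reads between them is uncertain. ALAS2, the erythroid enzyme that starts haem synthesis, was listed at 0.03 and 0.02 TPM, and the red cell anion exchanger SLC4A1 at 0 and 0.12 TPM. HBG2 was at 1.25 and 1.75 TPM. Of the 7 genes, 3 were called lower and 0 higher, beside 25.5% and 8.45% of all genes tested. After centring HBQ1 was the 1 gene of the 7 still past 2-fold (-1.58), beside 16% of all genes called lower. HBA1 was then at -0.90 and HBE1 at -0.67.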
